A study of Mus musculus with 12 samples.

Results

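Disease-associated microglia genes were followed in the hippocampus of naturally aged mice. The set holds 10 genes chosen by name, Trem2, Tyrobp, Apoe, Lpl, Clec7a, Axl, Itgax, Spp1, Ccl6 and Cst7, out of 27833 genes with FPKM values, a level that corrects the fragments counted on a gene for its length and for sequencing depth. All 10 had reads in all 12 libraries. The mice were wild-type C57BL/6J males aged 20 months that received an oral gavage for 14 days, with normal saline in the CON group (3 libraries), 5 mg/kg/day of pyrroloquinoline quinone (PQQ, a redox cofactor) in the PQQ-L group (5 libraries) and 10 mg/kg/day in the PQQ-H group (4 libraries). The study assigned 6 mice to each group, and it asked whether short-term PQQ alters the aged hippocampus. No young group was analysed here, so the effect of age itself could not be measured.

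Microglia are the resident macrophages of the brain. In aged or injured tissue, a part of them lowers the homeostatic genes of resting microglia, such as P2ry12 and Tmem119, and raises a set of genes for lipid handling, phagocytosis and secretion that is called the disease-associated microglia program. The surface receptor TREM2 binds lipids and lipoproteins, including apolipoprotein E, and signals through the adaptor TYROBP. Several members are not restricted to microglia, since astrocytes express Apoe, neurons express Lpl, and choroid plexus and other cells outside the parenchyma can express Spp1.

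Reads counted on genes ranged from 29654553 to 38179496 per library. The markers of region and tissue did not match the hippocampus label equally in the 12 libraries. In CON 1, CON 3, PQQ-H 1 and PQQ-H 2, the summed FPKM of 8 genes of striatal projection neurons (led by Ppp1r1b and Penk) was 1181 to 3044, against 34.6 to 149 in the other 8. The summed FPKM of 10 genes of hippocampal neurons was 68.3 to 145 in these 4 libraries and 197 to 485 in the other 8. All 5 PQQ-L libraries belong to the 8, and CON 2 is the only control among them. The 18 genes of the choroid plexus, the epithelium that makes cerebrospinal fluid, summed to 1571 to 5528 FPKM in CON, 52.7 to 128 in PQQ-L and 22.1 to 36.7 in PQQ-H. Member values, above all of PQQ-L vs. CON, are therefore also given without the 4 libraries, a fit in which CON 2 is the only control and is assumed to vary like the other groups and which called 1 gene of all genes for PQQ-L and 6 for PQQ-H against CON. In bulk tissue, fewer cells of a type and less RNA per cell cannot be told apart.

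The regulatory DNA upstream of 4 members is shown because Trem2 and Spp1 behaved differently across the libraries, and because Spp1, Ccl6 and Cst7 share a run of letters there that Trem2 lacks. Each line gives the 250 bases before the gene's start in RefSeq GRCm38.p6, 5′ to 3′ on the gene's strand. Capitals mark AGGAAGTG on either strand, a purine-rich run of the kind bound by ETS factors such as PU.1, the myeloid factor encoded by Spi1.
Spp1, chr5:104434861-104435110, plus strand: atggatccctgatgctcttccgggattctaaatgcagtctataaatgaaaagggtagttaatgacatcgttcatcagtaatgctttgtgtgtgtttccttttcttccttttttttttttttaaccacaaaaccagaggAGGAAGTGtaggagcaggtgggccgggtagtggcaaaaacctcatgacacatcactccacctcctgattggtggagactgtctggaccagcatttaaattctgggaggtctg
Ccl6, chr11:83593088-83593337, minus strand: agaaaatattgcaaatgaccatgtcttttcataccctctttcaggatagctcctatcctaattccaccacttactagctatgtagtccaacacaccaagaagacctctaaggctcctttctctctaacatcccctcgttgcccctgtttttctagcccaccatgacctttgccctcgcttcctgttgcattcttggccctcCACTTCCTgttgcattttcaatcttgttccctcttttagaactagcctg
Cst7, chr2:150570165-150570414, plus strand: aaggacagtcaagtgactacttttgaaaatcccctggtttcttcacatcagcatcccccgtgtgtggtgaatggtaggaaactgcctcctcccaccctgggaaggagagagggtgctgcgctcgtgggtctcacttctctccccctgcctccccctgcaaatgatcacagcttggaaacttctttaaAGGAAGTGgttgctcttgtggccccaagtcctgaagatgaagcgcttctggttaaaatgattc
Trem2, chr17:48346151-48346400, plus strand: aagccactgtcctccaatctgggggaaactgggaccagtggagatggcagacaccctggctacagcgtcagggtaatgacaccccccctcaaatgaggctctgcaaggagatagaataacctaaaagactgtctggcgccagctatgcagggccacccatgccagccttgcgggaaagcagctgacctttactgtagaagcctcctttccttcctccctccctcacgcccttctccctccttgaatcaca
The letters were chosen after the sequences had been seen, and a match is a description, not a binding site. Only this exact run was searched, and the bases shown for Trem2 do hold other purine-rich runs on the other strand. AGGAAGTG (CACTTCCT on the other strand) began 112 bases before the start of Spp1, 49 bases before that of Ccl6 and 63 before that of Cst7. In windows from 250 bases before to 50 after the start, it occurred in 3 of the 8 members with an entry, which have 12 promoters. Over all genes it occurred in 4.07% of 32851 promoters, a share per promoter and not per gene. Since the letters were chosen from member sequences, these shares are not a comparison. Tyrobp and Lpl had no entry.

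Levels of the members spanned a wide range. On the FPKM scale, which is per length, the mean over the 12 libraries was 707 for Apoe, 35.8 for Tyrobp, 15.9 for Trem2, 11.03 for Lpl, 9.50 for Axl, 6.04 for Spp1 and 2.65 for Ccl6. Clec7a (0.681), Cst7 (0.513) and Itgax (0.148) were close to the limit of detection. Apoe and Tyrobp stood above the next member by more than the SD over the libraries, as did Ccl6 above Clec7a. All other neighbours in this order overlapped within 1 SD. Clec7a, Cst7 and Itgax, markers by which the disease-associated state is recognised in sorted cells, rested on few reads, 5 to 123 per library for Clec7a, 6 to 36 for Cst7 and 7 to 46 for Itgax. For these 3, counting error is a visible part of the spread, and the intervals given for them cover counting error only. Differences were tested with limma on log2(FPKM + 0.1), fitting the 12 libraries together and keeping the 13796 genes whose mean FPKM reached 0.5. Calling a gene required an adjusted p (Benjamini-Hochberg) below 0.05 together with an absolute log2FC above 1. Itgax fell below the FPKM filter, so 9 of the 10 members entered the test.

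**Figure D1:**
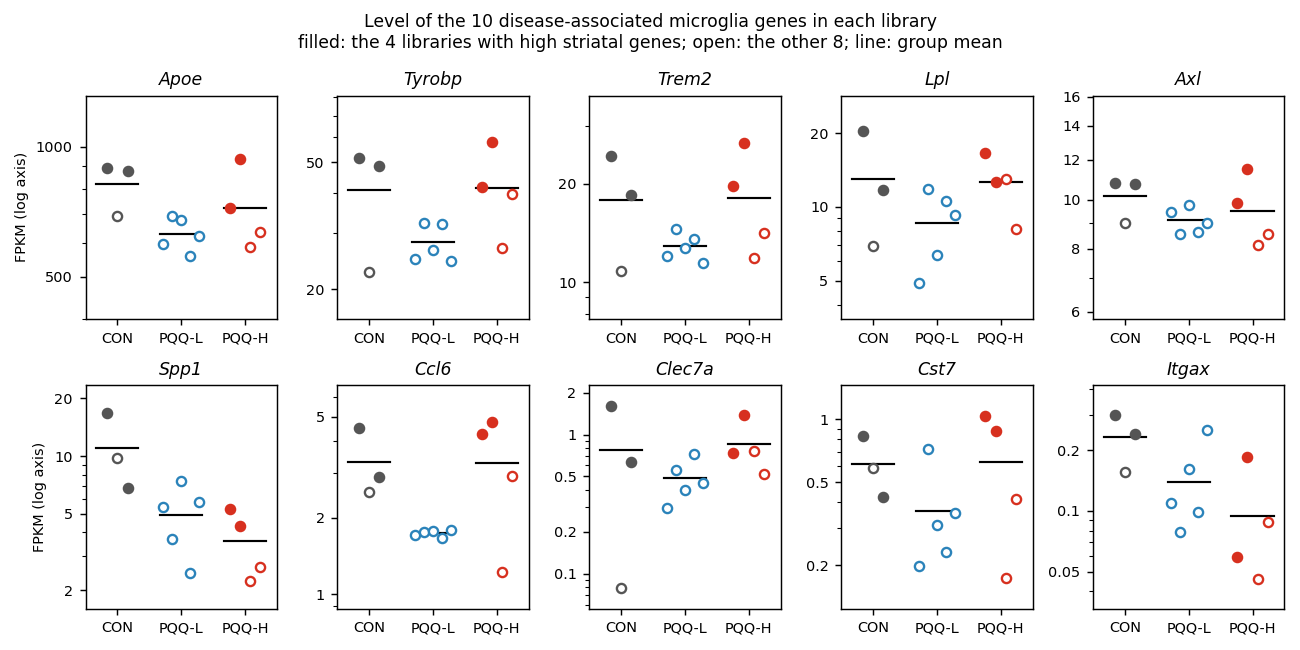
FPKM on a log axis (vertical) by group (horizontal) for the 10 members, 1 point per library. Filled points are the 4 libraries with high striatal genes, open points the other 8, and lines the group means. In Trem2, Tyrobp, Apoe and Axl the 4 filled points are the highest of the 12, whereas in Spp1 all PQQ-H points lie below all CON points.

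None of the 9 tested members was called in PQQ-L vs. CON, where limma called 0.471% of all genes as lower and 0% as higher. None was called in PQQ-H vs. CON, where 0.819% of all genes were called as lower and 0% as higher. None was called between the doses, where 0% of all genes were called in either direction. The voom test on recovered reads, which 10 members entered, also called 0 in each comparison. At an unadjusted p below 0.05, limma gave 3 members lower in PQQ-L vs. CON (Apoe, Spp1 and Ccl6), against 11.6% of all genes. The same threshold gave 1 member lower in PQQ-H vs. CON (Spp1, against 7.88% of all genes) and 1 higher in PQQ-H vs. PQQ-L (Ccl6, against 3.55%).

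The fitted log2FC was below 0 for 9 of the 9 members in PQQ-L vs. CON, with a median of -0.46, whereas 53.9% of all genes were below 0 with a median of -0.03. The shift was not particular to the members. In the same comparison, 7 of 7 oligodendrocyte genes (median -0.61), 8 of 8 striatal genes and 9 of 11 homeostatic microglia genes were below 0. Of 9 astrocyte genes 3 were below 0, and of 10 hippocampal neuron genes 0 were. In PQQ-H vs. CON, 5 of the 9 members were below 0 with a median of -0.10, against 55.6% and -0.03 for all genes. Between the doses (PQQ-H vs. PQQ-L), 8 members of 9 were above 0 with a median of 0.52, against 45.7% and -0.02. The member median in PQQ-L vs. CON moved to 0.014 without the 4 libraries with high striatal genes (4 of the 9 below 0), to -0.12 with a striatal score as a covariate and to 0.12 with a choroid plexus score. In PQQ-H vs. CON it was -0.11, 0.051 and 0.43 under the same settings. Between the doses it was 0.016 without the 4 libraries. The choroid plexus score hardly varies apart from the groups, so the medians with it are loosely set. For Trem2 in PQQ-L vs. CON, the SE was 0.991 with this score and 0.274 in the main fit. The 3 comparisons share libraries and the members move together, so these counts are not independent of each other. All 5 PQQ-L libraries had low striatal genes, whereas 2 of the 3 CON and 2 of the 4 PQQ-H libraries had high ones.

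**Figure D2:**
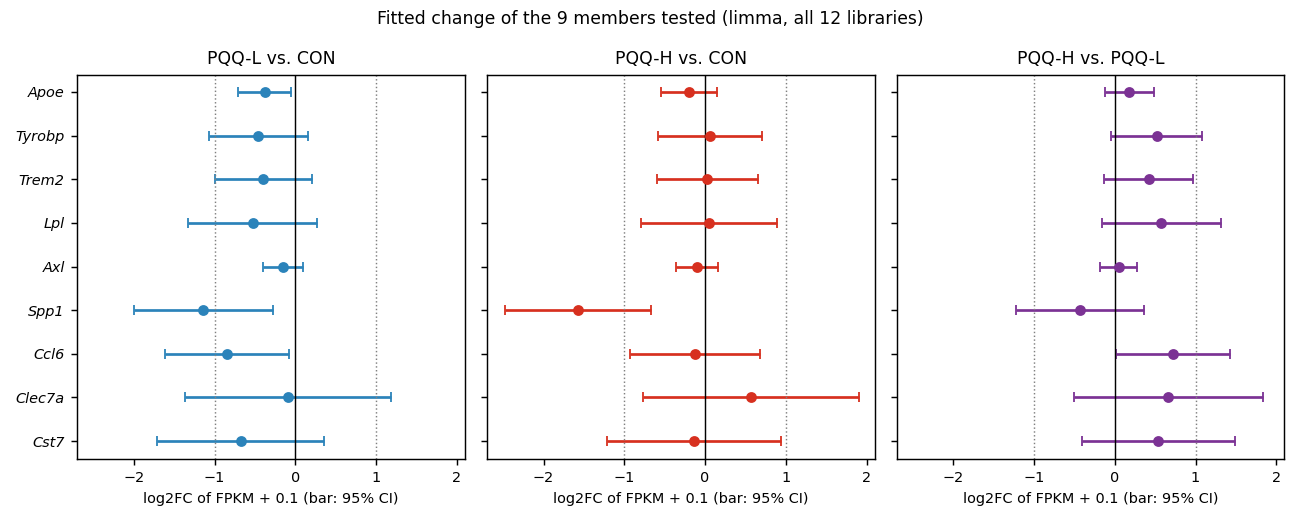
Fitted log2FC of FPKM + 0.1 (horizontal, points) with 95% confidence intervals (bars) for the 9 tested members (vertical) in the 3 comparisons, from limma on all 12 libraries. Dotted lines mark a log2FC of -1 and 1. The interval of Spp1 lies below 0 in both comparisons with CON, and most other intervals include 0.

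Trem2, the lipid-sensing receptor of the program, was 24.3, 10.8 and 18.5 FPKM in CON 1 to 3. The levels were 12.0, 14.6, 12.7, 13.6 and 11.5 FPKM in PQQ-L 1 to 5 and 19.7, 26.6, 11.9 and 14.2 FPKM in PQQ-H 1 to 4. The groups overlapped, with the widest spread within CON and PQQ-H. Against CON, the log2FC was -0.40 for PQQ-L (SE 0.274, limma adjusted p = 0.351) and 0.03 for PQQ-H (SE 0.287, limma adjusted p = 0.981). The 4 highest libraries of the 12 were CON 1, CON 3, PQQ-H 1 and PQQ-H 2, the 4 with high striatal genes, with a mean of 22.3 FPKM against 12.7 in the other 8. Within the 4, the mean was 21.4 in CON and 23.2 in PQQ-H. Among the other 8, CON 2 at 10.8 FPKM was the lowest of all, while PQQ-L averaged 12.9 and the remaining PQQ-H libraries 13.03. Without the 4 libraries the log2FC of PQQ-L vs. CON turned to 0.25 (SE 0.146, limma adjusted p = 0.978).

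Tyrobp, which encodes the signalling adaptor of TREM2 and of other myeloid receptors, followed Trem2 closely. Its levels were 51.7, 22.6 and 48.7 FPKM in CON, 24.9, 32.3, 26.6, 32.1 and 24.6 FPKM in PQQ-L, and 41.8, 57.8, 26.9 and 39.7 FPKM in PQQ-H. The groups overlapped, and CON 2 was the lowest of all 12 libraries. The log2FC against CON was -0.46 for PQQ-L (SE 0.280, limma adjusted p = 0.303) and 0.06 for PQQ-H (SE 0.293, limma adjusted p = 0.957). Between the doses it was 0.52 (limma adjusted p = 0.580), with p = 0.0476 in a two-sided exact permutation test over 126 splits. The difference between PQQ-L and CON depended on which controls were kept. Without CON 2 the log2FC was -0.84 (limma adjusted p = 0.0343, with the fold threshold missed). In that fit the controls left, CON 1 and CON 3, have high striatal genes and no PQQ-L library has, and limma called 431 of all genes as lower and 435 as higher. Without CON 1 the log2FC of Tyrobp was -0.25 and without CON 3 -0.29. Without the 4 libraries with high striatal genes, where CON 2 is the only control left, it was 0.30.

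Apoe, the main apolipoprotein of brain lipid transport, was by far the most abundant member. Its levels were 891, 691 and 879 FPKM in CON, 596, 692, 677, 559 and 620 FPKM in PQQ-L, and 722, 938, 587 and 636 FPKM in PQQ-H. Only PQQ-L 2 reached above the lowest control, at 692 against 691 FPKM, and PQQ-H spanned the CON range. The log2FC was -0.38 in PQQ-L, a fold of 0.769 with a 95% confidence interval of 0.612 to 0.967 (limma adjusted p = 0.234, 0.0279 before adjustment). It was -0.20 in PQQ-H (SE 0.157, limma adjusted p = 0.747). Without CON 2, the difference in PQQ-L was -0.50 and passed the adjusted threshold but not the fold threshold (limma adjusted p = 0.0484). The 4 libraries with high striatal genes again held the 4 highest levels, with a mean of 858 FPKM against 632, and without them the log2FC in PQQ-L was -0.14.

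Lpl, which encodes lipoprotein lipase, was 20.3, 6.93 and 11.8 FPKM in CON. It was 4.89, 11.9, 6.37, 10.6 and 9.28 FPKM in PQQ-L and 16.6, 12.7, 12.98 and 8.17 FPKM in PQQ-H. CON alone spanned nearly the whole range of the 12 libraries, and the groups overlapped. The fitted log2FC was -0.53 for PQQ-L (SE 0.366, limma adjusted p = 0.351) and 0.05 for PQQ-H (SE 0.383, limma adjusted p = 0.977). Leaving out 1 library moved the PQQ-L value from -0.91 (without CON 2) to -0.14 (without CON 1), and it turned to 0.23 without the 4 libraries with high striatal genes.

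Axl, a receptor tyrosine kinase that recognises dying cells through its ligand GAS6, was the steadiest member. Its levels were 10.8, 8.995 and 10.7 FPKM in CON, 9.47, 8.57, 9.78, 8.65 and 9.01 FPKM in PQQ-L, and 9.87, 11.5, 8.12 and 8.54 FPKM in PQQ-H. The highest library was 1.41 times the lowest, against 2.46 times for Trem2 and 7.43 times for Spp1. Against CON, the log2FC was -0.16 for PQQ-L (95% confidence interval -0.41 to 0.09, limma adjusted p = 0.374) and -0.10 for PQQ-H (-0.37 to 0.16, limma adjusted p = 0.825). As for Trem2, the 4 highest libraries were those with high striatal genes, and without them the log2FC was 0.014 for PQQ-L and -0.11 for PQQ-H.

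Clec7a, the beta-glucan receptor dectin-1, had the widest range, 20.5 times from the lowest to the highest library. It was 1.61, 0.0784 and 0.639 FPKM in CON, 0.297, 0.560, 0.403, 0.727 and 0.450 FPKM in PQQ-L, and 0.741, 1.38, 0.766 and 0.517 FPKM in PQQ-H. Both the highest and the lowest library were controls, and their 95% Poisson intervals, 1.34 to 1.92 for CON 1 and 0.0255 to 0.183 for CON 2 (5 reads), were far apart. Its log2FC was -0.10 for PQQ-L (SE 0.582, limma adjusted p = 0.921) and 0.57 for PQQ-H (SE 0.608, limma adjusted p = 0.813). Leaving out 1 library at a time moved the PQQ-L value from -0.98 to 0.65, and without the 4 libraries it was 1.67, so that no direction can be given for Clec7a.

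Itgax, which encodes the integrin CD11c, was 0.299, 0.156 and 0.241 FPKM in CON. It was 0.109, 0.0786, 0.161, 0.0985 and 0.250 FPKM in PQQ-L and 0.0591, 0.185, 0.0459 and 0.0878 FPKM in PQQ-H. Of the 9 PQQ libraries, 6 lay below the lowest control. Two-sided exact permutation tests of the mean log2(FPKM + 0.1) gave a difference of -0.49 for PQQ-L (p = 0.179) and of -0.80 for PQQ-H (p = 0.114, where the smallest p that 35 splits allow is 0.0571). Within the 4 libraries with high striatal genes, Itgax averaged 0.270 FPKM in CON and 0.122 in PQQ-H, and among the other 8 it was 0.156 in CON 2 and averaged 0.140 in PQQ-L and 0.0669 in PQQ-H.

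Spp1, which encodes the secreted phosphoprotein osteopontin, had the largest difference of the 9 tested members in both comparisons with CON. Its levels were 16.7, 9.72 and 6.81 FPKM in CON, 5.40, 3.71, 7.45, 2.47 and 5.76 FPKM in PQQ-L, and 5.30, 4.30, 2.24 and 2.63 FPKM in PQQ-H. All 4 PQQ-H libraries lay below all controls, and of PQQ-L only PQQ-L 3 reached above the lowest control, CON 3. The log2FC was -1.57 in PQQ-H, a fold of 0.336 with a 95% confidence interval of 0.180 to 0.629 (limma adjusted p = 0.137, 0.00268 before adjustment). It was -1.14 in PQQ-L, a fold of 0.454 with an interval of 0.249 to 0.825 (limma adjusted p = 0.219, 0.0141 before adjustment). The exact permutation p in PQQ-H was 0.0571, the smallest that 35 splits allow, and 5.72% of all genes were lower in PQQ-H without overlap. The difference between the doses was -0.43 (SE 0.362, limma adjusted p = 0.646).

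Spp1 was lower in PQQ-H than in CON among libraries with high and with low striatal genes. Within the 4 libraries with high striatal genes, Spp1 averaged 11.7 FPKM in CON and 4.80 in PQQ-H. Among the other 8, it was 9.72 FPKM in CON 2 and averaged 4.96 in PQQ-L and 2.44 in PQQ-H. Restricted to the 4, the log2FC of PQQ-H vs. CON was -1.14, and without them it was -1.96. In PQQ-L vs. CON it was -1.05 without them. Spp1 had a correlation of 0.514 with the striatal mean over the 12 libraries, and with a striatal score as a covariate its log2FC became -0.67 (PQQ-L) and -1.42 (PQQ-H). Choroid plexus genes, however, were high in all 3 controls and low in all PQQ libraries, and the correlation of Spp1 with their mean level was 0.709. With the choroid plexus mean as a covariate the log2FC of Spp1 was -2.65 with an SE of 1.82, since this mean hardly varies apart from the groups. Spp1 also had r of 0.639 with the mean of meningeal fibroblast genes and -0.666 with that of hippocampal neuron genes. The part of tissue makeup in the Spp1 difference, the choroid plexus included, and the part of PQQ cannot be told apart in these libraries. The exons of Spp1 also overlap those of 1 other gene model on the same strand, Gm42793 in GENCODE M21.

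Ccl6, a chemokine of myeloid cells, was 4.51, 2.54 and 2.89 FPKM in CON. It was 1.70, 1.75, 1.77, 1.66 and 1.80 FPKM in PQQ-L and 4.28, 4.75, 1.23 and 2.91 FPKM in PQQ-H. The 5 PQQ-L libraries differed by less than their Poisson intervals and lay below all controls, a pattern found in 7.66% of all genes, while PQQ-H held both the highest and the lowest library of the 12. The log2FC in PQQ-L was -0.85 (SE 0.351, limma adjusted p = 0.235, 0.0328 before adjustment), and the exact permutation p was 0.0357, the smallest that 56 splits allow. In PQQ-H it was -0.13 (SE 0.367, limma adjusted p = 0.930). PQQ-H exceeded PQQ-L by 0.73 (limma adjusted p = 0.580, 0.0450 before adjustment). With a striatal score as a covariate, the log2FC in PQQ-L was -0.29 (SE 0.256), and without the 4 libraries with high striatal genes it was -0.52.

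Cst7, which encodes the cathepsin inhibitor cystatin F, was 0.828, 0.581 and 0.424 FPKM in CON. It was 0.197, 0.717, 0.312, 0.231 and 0.357 FPKM in PQQ-L and 1.04, 0.877, 0.173 and 0.415 FPKM in PQQ-H. Of the PQQ-L libraries, 4 of 5 lay below the lowest control, while PQQ-H fell on both sides. Against CON, the log2FC was -0.68 for PQQ-L (SE 0.471, limma adjusted p = 0.352) and -0.14 for PQQ-H (SE 0.493, limma adjusted p = 0.943). Without the 4 libraries it was -0.66 and -0.86.

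**Figure D3:**
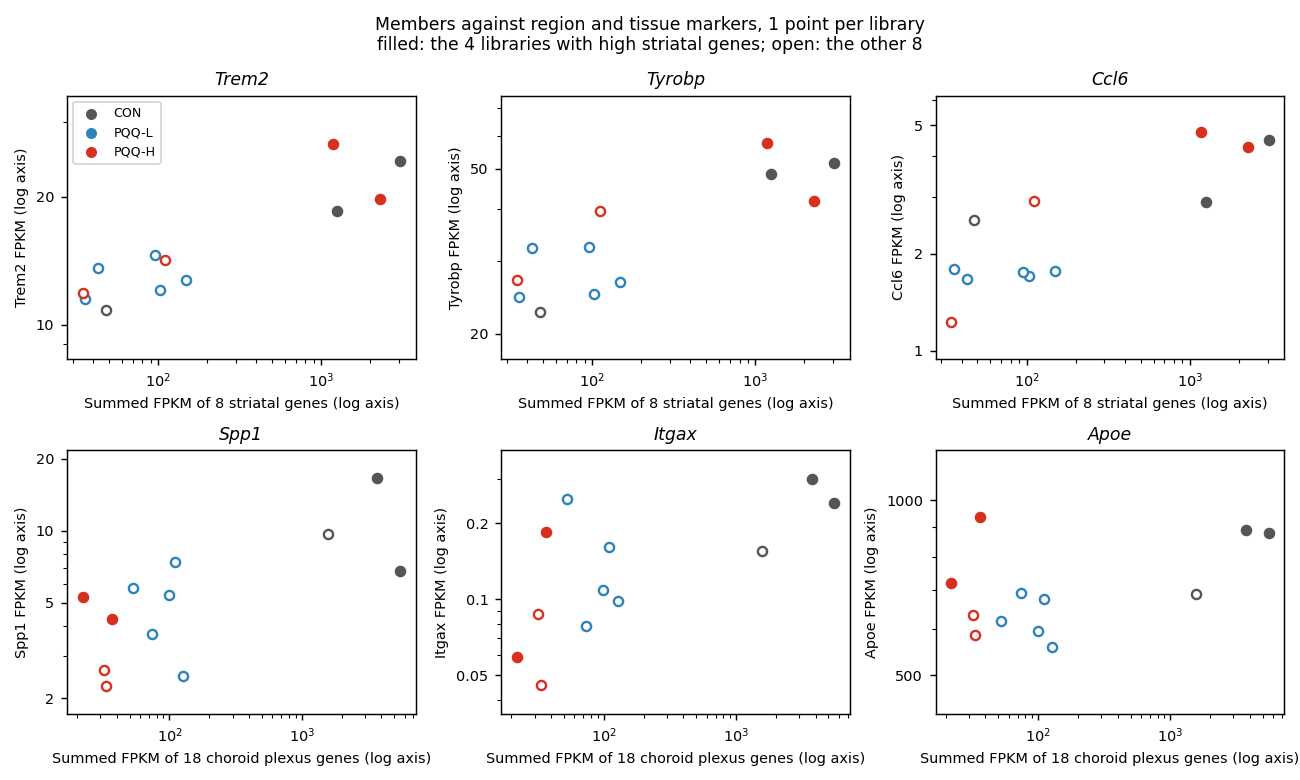
FPKM of a member (vertical, log axis) against the summed FPKM of 8 striatal genes (top, horizontal, log axis) or 18 choroid plexus genes (bottom), 1 point per library, colored by group, filled for the 4 libraries with high striatal genes. Trem2 and Tyrobp are highest in the libraries at 1181 to 3044 FPKM of striatal genes, in both groups that hold such libraries, while the 3 controls stand apart at 1571 to 5528 FPKM of choroid plexus genes.

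The members fell into differing patterns over the 12 libraries. The levels of 4 of the 9 tested members (Trem2, Tyrobp, Apoe and Axl) in the 4 libraries with high striatal genes were above and without overlap with those in the other 8, as were those of 10.7% of all genes. Pearson's r on log2(FPKM + 0.1) was 0.953 for Trem2 and Tyrobp, 0.877 for Apoe and Axl, and 0.849 for Trem2 and Apoe. With the mean of 8 striatal genes, r was 0.899 for Trem2, 0.855 for Ccl6 and 0.852 for Axl. Spp1 stood apart, with r of 0.274 to Trem2, 0.121 to Tyrobp and -0.08 to Clec7a, and its closest member was Itgax at 0.739. Of the members with AGGAAGTG, Spp1 had r of 0.461 to Ccl6 and 0.433 to Cst7, and Ccl6 and Cst7 had 0.836. Trem2, without AGGAAGTG in the bases shown, had r of 0.847 to Ccl6 and 0.708 to Cst7. Whether these letters go with a pattern over the libraries was not tested. These values describe 12 libraries that share groups, tissue makeup and depth, and they carry no test.

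**Figure D4:**
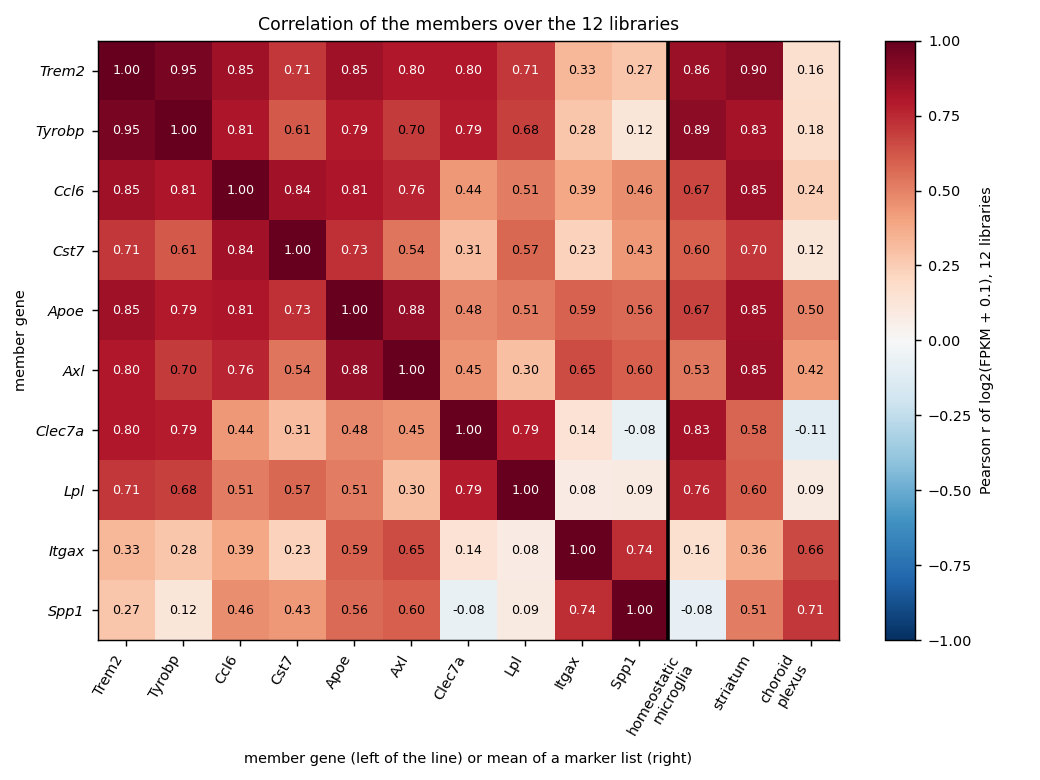
Pearson's r of log2(FPKM + 0.1) over the 12 libraries (color, printed in each cell) between members (left of the line) and with the mean of homeostatic microglia, striatal and choroid plexus genes (right of the line). Trem2, Tyrobp, Ccl6, Apoe and Axl form a block of high values, and Spp1 and Itgax pair with each other at 0.739 and with the choroid plexus mean at 0.709 and 0.659.

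Outside the set, the genes with the pattern most like that of Trem2 were Rpsa (r = 0.985), Entpd1 (0.985) and Rpl37rt (0.982), and those most like Tyrobp were Supt4a (0.988), Lamtor4 (0.980) and Pfdn5 (0.973). Apoe was closest to Trappc6a (0.981), Decr1 (0.970) and Lyz2 (0.968), and Axl to Pon2 (0.969), Selenop (0.959) and Hsd17b11 (0.955). For Spp1 they were Cnksr3 (0.961), Tmem163 (0.959) and Flii (0.940), and for Ccl6 Prdx3 (0.955), Llph (0.955) and Gm53710 (0.952). Lpl was closest to Ptms (0.954), Baiap2 (0.944) and Noc2l (0.943), Clec7a to Trmt1 (0.935), Arpc5l (0.931) and Fbxl15 (0.930), and Cst7 to 2810001A02Rik (0.903), Trpt1 (0.894) and Poldip3 (0.893). These r are over 12 libraries and were picked as the highest of 13796 genes.

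Homeostatic microglia genes were compared to see whether the members moved apart from microglia in general. Of 11 such genes in the test (among them Csf1r, P2ry12 and Tmem119), limma called 0 in the comparisons with CON, as did voom. At an unadjusted p below 0.05, limma gave 0 lower in PQQ-L (against 11.6% of all genes) and 0 in PQQ-H (against 7.88%). By the sign of the log2FC, 9 of the 11 were below 0 in PQQ-L and 2 in PQQ-H, against 53.9% and 55.6% of all genes. P2ry12 (0.38, SE 0.129, limma adjusted p = 0.327) and Gpr34 (0.35, SE 0.152, limma adjusted p = 0.486) had the largest log2FC in PQQ-H. Both are part of the mean used as a scale below. Between the doses, 4 of the 11 were higher in PQQ-H at an unadjusted p below 0.05 in limma (against 3.55% of all genes), and 1 had a log2FC below 0. Their median log2FC was -0.10 (PQQ-L) and 0.06 (PQQ-H), nearer to 0 than the member median in PQQ-L. Their summed FPKM was 230 to 276 in the 4 libraries with high striatal genes and 168 to 212 in the other 8, so they too were higher in the former. Each member was then expressed relative to the mean log2 level of these 11 genes in the same library. On this scale, the difference between PQQ-L and CON was -0.30 for Trem2, -0.36 for Tyrobp, -0.28 for Apoe, -0.75 for Ccl6, -0.58 for Cst7, -0.43 for Lpl and -1.04 for Spp1, with Axl at -0.059 and Clec7a at 0.0017. Between PQQ-H and CON it was -0.09 for Trem2, -0.05 for Tyrobp, -0.31 for Apoe, -0.22 for Axl, -0.24 for Ccl6, -0.25 for Cst7, -0.068 for Lpl and -1.69 for Spp1, with Clec7a at 0.46.

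Relative to homeostatic microglia genes, Apoe separated the controls from both PQQ groups. Its relative level was 6.11 to 6.17 in CON, 5.57 to 6.00 in PQQ-L and 5.69 to 5.99 in PQQ-H, with no overlap. In PQQ-L, 2 of the 9 tested members (Apoe and Ccl6) were below all controls, against 3.66% of all genes on this scale. In PQQ-H, 3 of the 9 (Apoe, Axl and Spp1) were, against 11.8% of all genes. Itgax, outside the test, was also without overlap in PQQ-H, at -6.28 to -5.69 against -5.29 to -5.01 in CON. Astrocytes also express Apoe, so its relative level is not a level per microglial cell.

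**Figure D5:**
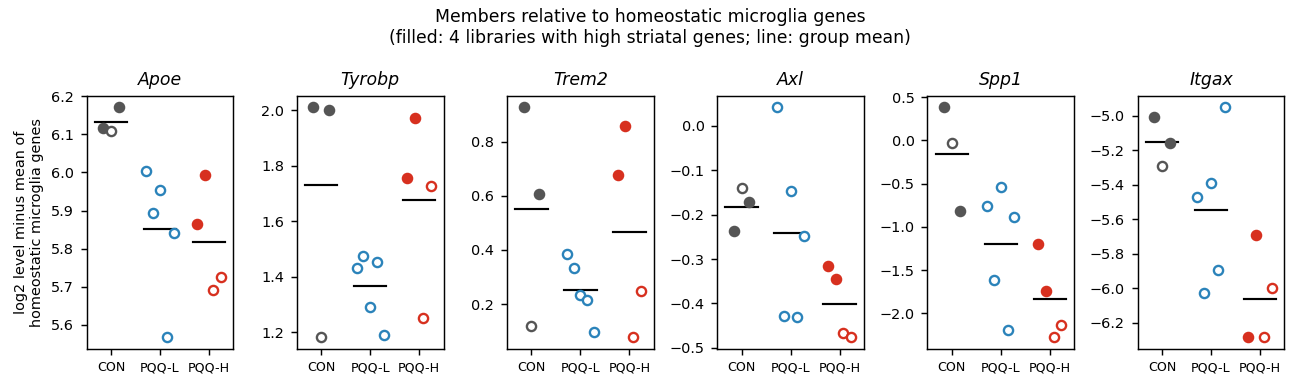
Log2(FPKM + 0.1) of a member minus the mean of 11 homeostatic microglia genes (vertical) by group (horizontal), 1 point per library, filled for the 4 libraries with high striatal genes, with lines at the group means. Apoe is at 6.11 to 6.17 in the 3 controls and at most 6.00 in the PQQ libraries, and Trem2 keeps its split between filled and open points.

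Among 24 other tested genes of the disease-associated program, limma called 0 for PQQ-L and 1 for PQQ-H against CON, while voom called 1 of 27 against CON at either dose. At an unadjusted p below 0.05, limma gave 11 lower in PQQ-L (against 11.6% of all genes) and 6 in PQQ-H (against 7.88%), with 0 higher in either. Lgals3, which encodes the lectin galectin-3, was the called gene, at 3.80 ± 1.81 FPKM in CON (SD, n = 3), 0.568 ± 0.247 in PQQ-L (n = 5) and 0.505 ± 0.378 in PQQ-H (n = 4). Its log2FC was -2.81 in PQQ-H (SE 0.528, limma adjusted p = 0.0283) and -2.51 in PQQ-L (SE 0.505, limma adjusted p = 0.0541). The Lgals3 call in PQQ-H was lost without CON 1, CON 3, PQQ-H 3, PQQ-H 4 or PQQ-L 1, each left out in turn (log2FC -2.81 to -2.48). Without the 4 libraries with high striatal genes its log2FC was -2.88 in PQQ-H, with 1 control. With a choroid plexus score as a covariate it was 0.20 (limma adjusted p = 0.9999), and that score hardly varies apart from the groups. The 2 most abundant genes of the list were Fth1, the ferritin heavy chain, with a log2FC of -0.36 (PQQ-L) and -0.0069 (PQQ-H), and Ctsd, the lysosomal protease cathepsin D, with -0.51 and -0.46 (limma adjusted p = 0.0922 and 0.157). In all, 18 of the 24 were below 0 in PQQ-L and 20 in PQQ-H, while Gpnmb (0.66 and 0.41) and Igf1 (0.67 and 0.16) were above 0 in both. Cd63, a lysosomal tetraspanin, and Ctsl, a lysosomal protease, passed the adjusted but not the fold threshold in both comparisons, as 0.587% (PQQ-L) and 1.08% (PQQ-H) of all genes did as lower, with or without the fold threshold. They are named, as are Gpnmb and Igf1, after their values were seen. Cd63 was 82.7 ± 18.2 FPKM in CON, 46.5 ± 2.90 in PQQ-L and 44.6 ± 6.88 in PQQ-H, with log2FC of -0.81 and -0.88 (limma adjusted p = 0.0276 and 0.0161). Ctsl was 40.0 ± 5.98 FPKM in CON, 26.8 ± 1.31 in PQQ-L and 27.1 ± 3.23 in PQQ-H, with log2FC of -0.57 and -0.56 (limma adjusted p = 0.0491 and 0.0456). Neither passed without CON 1 or without CON 3. With a choroid plexus score as a covariate the log2FC was 0.26 and 0.47 for Cd63 and 0.054 and 0.23 for Ctsl. That score hardly varies apart from the groups, and for both genes the limma adjusted p with it was 0.9996 (PQQ-L) and 0.9999 (PQQ-H). The list had a median log2FC of -0.49 (PQQ-L) and -0.24 (PQQ-H), against -0.03 for all genes in both. Both lysosomal genes are expressed in many cell types, and choroid plexus genes fell with them, so that the part of microglia was not tested.

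Partners of the members in signalling and lipid handling gave few differences. Of 13 tested genes of TREM2 signalling (led by Grb2 and Adam10), limma and voom called 0 in each comparison with CON, with 1 lower by limma at an unadjusted p below 0.05 for PQQ-L (against 11.6% of all genes) and 0 for PQQ-H. The gene was Spi1, named after its values were seen, with a log2FC of -0.51. Of 14 tested lipid and ligand partners, limma and voom called 0 in either comparison, with 3 lower by limma at an unadjusted p below 0.05 in each, against 11.6% (PQQ-L) and 7.88% (PQQ-H) of all genes. Gas6, the ligand of AXL, was 51.8 ± 6.79 FPKM in CON, 34.9 ± 5.44 in PQQ-L and 31.9 ± 2.21 in PQQ-H. Its log2FC of -0.69 in PQQ-H had a limma adjusted p of 0.0315 and missed the fold threshold, and that of -0.58 in PQQ-L had one of 0.0801. Pltp, which encodes the phospholipid transfer protein, was 61.2 ± 13.9 FPKM in CON, 36.1 ± 4.97 in PQQ-L and 31.2 ± 6.37 in PQQ-H, with a log2FC of -0.97 in PQQ-H (limma adjusted p = 0.0347). Neither Gas6 nor Pltp passed in PQQ-H without CON 1 or without CON 3. Pltp passed both thresholds without CON 2 (log2FC -1.13, limma adjusted p = 0.018), where the controls left have high striatal genes. It also did with a homeostatic microglia score as a covariate (-1.06, limma adjusted p = 0.0136). With a choroid plexus score, the log2FC in PQQ-H was 0.51 for Gas6 and 0.79 for Pltp (limma adjusted p = 0.9999 for each). That score hardly varies apart from the groups.

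Markers of other cells gave the following counts. Of 17 tested choroid plexus genes, limma called 14 as lower for PQQ-L and 15 for PQQ-H, led by Ttr (3477 ± 1912, 78.1 ± 28.2 and 21.3 ± 7.80 FPKM in CON, PQQ-L and PQQ-H). Of 8 meningeal fibroblast genes, 1 (Col1a1) was called as lower in PQQ-L and 3 (Col1a1, Col1a2 and Igf2) in PQQ-H. Of 3 tested border macrophage genes, 2 of monocytes and neutrophils and 1 of T cells, limma called 0. Voom, which 9 border macrophage genes entered, also called 0. The T cell gene tested by limma was Cd4, with a log2FC of -4.28 in PQQ-L (SE 1.92, limma adjusted p = 0.240). The summed FPKM of 6 T cell genes, Cd4 included, was 8.74 to 27.9 in the 4 libraries with high striatal genes and 0.0809 to 0.405 in the other 8. The part of T cells in Cd4 was not tested. The defining border macrophage markers were low. The summed FPKM of 10 of them was 4.92 to 5.74 in CON, 3.26 to 4.35 in PQQ-L and 3.25 to 6.21 in PQQ-H, so that PQQ-L lay below all controls. Limma and voom also called 0 of 9 astrocyte, 7 oligodendrocyte and 7 endothelial genes, with 1 astrocyte gene higher in PQQ-L at an unadjusted p below 0.05 and 0 of the others. The oligodendrocyte genes summed to 1749 to 2759 FPKM in the 4 libraries with high striatal genes and to 951 to 1670 in the other 8. The part of these cells in the member levels was not tested.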

How the data were processed

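The 12 libraries of hippocampal RNA from aged mice were sequenced on an Illumina NovaSeq instrument. Per the study's methods, fastp was used for filtering, HISAT2 for mapping and HTSeq-count for counting. The submitters' processing notes name build mm39, and the strand setting is not given in the sources used here. The authors deposited FPKM for 27833 genes, and their own test was not repeated. The reads behind each value were recovered from FPKM ratios between libraries and came out whole (within 0.02 reads) for 100% of 25563 genes with at least 2 values. No 2 libraries of a group agreed within sampling noise (chi-square per degree of freedom of 18.8 or more in 19 pairs). Tests used limma 3.58.1 with trend in R 4.3.3, on log2(FPKM + 0.1) of genes averaging 0.5 FPKM or more, a scale on which changes of low genes are understated. The labels do not state that each library is a separate mouse, so p-values measure the spread between these samples. Two-sided exact permutation tests used every split of the 2 groups compared. The fits and the recovery of reads were tested on simulated data. Other steps used Python 3.11.15 with scipy 1.17.1. The genes named are the 10 members, from each marker list the called genes or else the 2 most abundant, and the 3 genes most like each member. Cd63, Ctsl, Gpnmb, Igf1, Spi1 and Gpr34, and the values of P2ry12, were added after their values were seen. Members and lists were chosen with earlier results of these data known. The alternatives were 14 planned settings, 12 fits without 1 library, and 4 settings chosen after seeing the data (a striatal score as a covariate, leaving out or keeping only the 4 libraries with high striatal genes, and voom on recovered reads).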

Additional observations from a re-analysis of the deposited data

How the results depend on the processing

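The count of members called was 0 in each comparison under every alternative run, including voom. Tyrobp and Apoe passed the adjusted but not the fold threshold without CON 2 in PQQ-L vs. CON, as given above. The all-gene counts behind the background moved more, from 65 calls in PQQ-L vs. CON to 431 lower and 435 higher without CON 2, 23 without CON 1, 36 lower and 1 higher without CON 3, 43 without PQQ-L 1, 112 with all genes above 0, 123 with voom, 17 with array weights, 42 with a minimum of 1 FPKM or with the striatal covariate, 23 with the replicate block, 0 with the choroid plexus covariate and 1 without the 4 libraries with high striatal genes. In PQQ-H vs. CON they moved from 113 to 169 lower and 1 higher with all genes above 0, 31 with array weights, 68 at 1 FPKM, 44 with only the 2 groups, 64 without CON 1, 62 without CON 3, 68 without PQQ-H 3, 67 without PQQ-H 4, 48 with the replicate block, 0 with the choroid plexus covariate, 6 without the 4 libraries and 35 with only them. Same-numbered libraries had correlations of -0.619 (CON 2 and PQQ-H 2) to 0.717 (CON 1 and PQQ-H 1) in their deviations from the group means. The former differ in striatal genes and the latter both have high ones, so these values cannot decide whether the numbers pair the samples. The replicate block called 0 members.

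In PQQ-L vs. CON, the log2FC changed sign for Trem2 (0.47), Tyrobp (0.88), Apoe (0.12), Clec7a (1.96) and Axl (0.33) with the choroid plexus covariate, for Trem2 (0.090), Clec7a (0.63) and Axl (0.018) with the striatal covariate, for Trem2 (0.25), Tyrobp (0.30), Lpl (0.23), Clec7a (1.67) and Axl (0.014) without the 4 libraries, and for Clec7a with a pseudocount of 0.01 (0.072), TPM (0.11), quantile normalization (0.10) and the homeostatic covariate (0.35). In PQQ-H vs. CON it did so for Trem2 (-0.15) and Lpl (-0.27) with array weights, for Trem2 (-0.23), Tyrobp (-0.21) and Lpl (-0.24) with the homeostatic covariate, for Apoe (0.43), Lpl (-0.27) and Axl (0.51) with the choroid plexus covariate, for Cst7 (0.17) with quantile normalization, for Cst7 (0.041) and Ccl6 (0.051) with the striatal covariate, and for Tyrobp (-0.029), Cst7 (0.60), Lpl (-0.092), Clec7a (-0.012) and Ccl6 (0.31) in only the 4 libraries. In PQQ-H vs. PQQ-L it did so for Trem2 (-0.051), Apoe (-0.040), Clec7a (-0.29) and Axl (-0.070) with the homeostatic covariate, for Apoe (-0.0021) with quantile normalization, for Apoe (-0.037), Cst7 (-0.21) and Axl (-0.12) without the 4 libraries, and for Axl with TPM (-0.035), array weights (-0.0021) and the striatal covariate (-0.067). The choroid plexus score hardly varies apart from the groups, and with it the SE of Trem2 in PQQ-L vs. CON was 0.991, against 0.274 in the main fit. The cause of the sign changes was not tested. Leaving out 1 library gave -0.98 to 0.65 for Clec7a in PQQ-L vs. CON, with the other 8 tested members below 0 in each such fit. In PQQ-H vs. CON it gave -0.30 to 0.29 for Trem2, -0.32 to 0.27 for Tyrobp, -0.42 to 0.26 for Cst7, -0.34 to 0.43 for Lpl, -0.32 to 1.31 for Clec7a and -0.35 to 0.27 for Ccl6, and in PQQ-H vs. PQQ-L -0.043 to 0.12 for Axl. Spp1 stayed below 0 under all alternatives run, between -1.99 and -0.67 in PQQ-L and between -2.65 and -1.14 in PQQ-H, and nearest to 0 without CON 1 among the fits that leave out 1 library (-0.80 and -1.23). Itgax, with 7 to 46 reads, and Cst7, with 6 to 36, are limited by depth.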
